A study of Arabidopsis thaliana with 8 samples.

Results

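The subject here is a set of Arabidopsis transcripts whose signal was flagged as well above background in both hda6 alleles and was not so flagged in their parent line or in the wild type. The members were chosen by detection on all 8 arrays. A probe belonged to the set if its target was a RefSeq mRNA, if the scanner software flagged its signal as well above background on all 4 hda6 arrays, and if the flag was absent on all 4 arrays of ros1-1 and C24. For a probe printed more than once, at least 0.5 of its spots had to carry the flag, which concerned 1 of the members. The rule found 158 of the 35617 RefSeq mRNA probes on the array, or 0.444%, and the same pattern was shown by 1.45% of the probes with other accessions, which were left out. Of these, 150 probes matched 141 protein-coding genes, and the other 8 probes, of 7 accessions, had no match in the annotation used. Detection chose the members, so the contrast of the hda6 alleles with ros1-1 or C24 is described below, and no test of it is given for them. Counts over whole gene lists are the exception, since 2 members are among the listed genes.

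HDA6 is a histone deacetylase of the RPD3 class. It removes acetyl groups from histone tails and works alongside DNA methylation, including that kept up by the CG methyltransferase MET1, to hold transposons, repeats and a set of genes in a silent state. ROS1 acts in the opposite direction on DNA, as a glycosylase that cuts out methylated cytosine. Loss of HDA6 in Arabidopsis is known to release silent loci, many of them in the heterochromatin around the centromeres.

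The study set seedlings of the double mutants ros1-1 hda6-10 and ros1-1 hda6-9 beside the single mutant ros1-1 and the C24 wild type, with 2 arrays per genotype that the design text calls biological replicates. All 4 lines are in the C24 background and carry the linked RD29A::LUC and 35S::NPTII transgenes, so both hda6 groups also lack ROS1, and no hda6 mutant with a working ROS1 was on the arrays. The alleles came from a T-DNA mutagenesis screen for suppressors of ros1-1. In hda6-9 a T-DNA lies near the stop codon, and hda6-10 has a small deletion that shifts the frame early in the protein. Seedlings were 12 days old and were held at 4 °C for 1 day before harvest. Each genotype is 1 line, and whole seedlings were read, so fewer cells that transcribe a gene and less RNA per cell cannot be told apart.

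Signal is given throughout as a percentage of the 75th percentile of the same array's signal. Over the 8 arrays, 77.2% to 80.6% of spots passed the background flag, no spot was saturated, and replicates correlated at 0.990 to 0.993 (Pearson's r over probes). Of 4 listed genes for leaf photosynthesis proteins, RBCS1A, RBCS3B and LHCB1.1 were detected on every array by all of their probes. LHCB2.1 was detected on every array by its brighter probe, but by its dimmer probe on 1 hda6-10 array only. The 2 probes of HDA6 itself (AT5G63110) separated the alleles. The brighter one read 29.5 and 29.2 in hda6-10, 186 and 180 in hda6-9, 89.1 and 87.2 in ros1-1, and 81.0 and 84.5 in C24. HDA6 signal was thus below the parent on both hda6-10 arrays and above it on both hda6-9 arrays. Where these probes lie relative to the hda6-9 insertion is not known here, so the reading does not say whether the hda6-9 transcript was intact. Against ros1-1 the log2 difference was -1.59 in hda6-10 (SE 0.07, limma adjusted p = 0.00014) and 1.05 in hda6-9 (SE 0.07, limma adjusted p = 0.00068). One sign of uneven material cut across the genotypes. The seed storage protein gene CRA1 read 30.9 and 75.2 in hda6-10, 50.2 and 0.654 in hda6-9, 34.7 and 82.4 in ros1-1, and 34.9 and 1.02 in C24. It was thus low on replicate 2 of hda6-9 and of C24, while the members read alike on both hda6-9 arrays (median log2 difference between replicates 1 and 2, -0.03).

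Most of the members were dim where they were read. On the hda6-10 arrays their median signal was 1.29 and 0.926, and the highest reached 72.4 and 72.9. On the hda6-9 arrays the median was 1.20 and 1.33, and the highest reached 83.8 and 98.7. In ros1-1 the medians were 0.0753 and 0.0701 and in C24 0.0749 and 0.0781, with no member above 0.34 on any of these 4 arrays. For all 158 probes the lowest hda6 array was above the highest ros1-1 or C24 array, which the choice of members by detection all but fixed in advance. The 2 hda6-10 arrays differed in level: 110 of the 158 probes were brighter on replicate 1, by a median of 0.26 on the log2 scale, against 0.04 over all probes tested.

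Since no member carried the flag for signal well above background in ros1-1 or C24, a fold change over those lines is given only as a lower bound. Lack of this flag does not mean lack of signal. With the positive-and-significant flag in its place, the set held 80 probes. It was computed as the mean log2 signal of the allele against the mean, per array, of the higher of the probe's own signal and the lowest flagged signal of that array. Over ros1-1 the bound had a median of 4.53-fold in hda6-10 (range 1.67 to 305) and of 4.96-fold in hda6-9 (range 1.60 to 381). It was above 10-fold for 48 probes in hda6-10 and for 50 in hda6-9, and under 2-fold for 4 and 3 probes. Over C24 the medians were 4.6-fold in hda6-10 and 5.0-fold in hda6-9. The set therefore ranged from transcripts just past detection to transcripts more than 100-fold above it.

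The gene best known as a silenced locus among the members was SDC (AT2G17690), an F-box gene kept off in vegetative tissue by DNA methylation over the repeats of its promoter. It read 51.3 and 65.8 in hda6-10 and 83.8 and 98.7 in hda6-9, against 0.06 and 0.05 in ros1-1 and 0.20 and 0.06 in C24. The bound over ros1-1 was at least 244-fold in hda6-10 and at least 381-fold in hda6-9. AT5G41660, which the study itself used as an endogenous target of HDA6, was also split between the lines. It read 23.1 and 18.0 in hda6-10 and 19.4 and 18.4 in hda6-9, against 0.09 and 0.06 in ros1-1 and 0.07 and 0.07 in C24. Its bound over ros1-1 was at least 85.4-fold in hda6-10 and at least 79.1-fold in hda6-9.

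Several members carry names of the chromatin machinery, a grouping made after the values were seen. Their bounds over ros1-1 ran from 3.10-fold (DRM1) to 4.09-fold (RPB5E) in hda6-10, under the set's median, and from 2.82-fold (chr31) to 14.4-fold (PKR2) in hda6-9, where chr31 alone was under it. DRM1 (AT5G15380) encodes a DNA methyltransferase of the family that sets new methylation. It read 0.68 and 0.81 in hda6-10 and 1.5 and 1.5 in hda6-9, against 0.06 and 0.05 in ros1-1 and 0.20 and 0.15 in C24. PKR2 (AT4G31900) is a chromatin remodeller related to PICKLE, and read 1.47 and 0.60 in hda6-10 and 3.86 and 3.07 in hda6-9, against 0.05 to 0.07 on the other 4 arrays. The remodeller chr31 (AT1G05490) read 0.79 and 0.72 in hda6-10 and 0.54 and 0.83 in hda6-9, against 0.12 and 0.16 in ros1-1 and 0.14 and 0.21 in C24. RPB5E (AT3G54490), a copy of the fifth largest RNA polymerase II subunit, read 1.26 and 0.90 in hda6-10 and 2.08 and 1.87 in hda6-9, against 0.28 and 0.25 in ros1-1 and 0.15 and 0.24 in C24. For chr31 and RPB5E the label "switched on" holds for the member probe alone. Another chr31 probe was detected on all 8 arrays, at 4.91 and 3.8 in hda6-10 and 5.83 and 6.24 in hda6-9, against 1.63 and 1.20 in ros1-1 and 1.23 and 1.21 in C24. A second RPB5E probe likewise read 4.36 and 2.86 in hda6-10 and 6.49 and 5.34 in hda6-9, against 0.986 and 1.08 in ros1-1 and 0.957 and 0.980 in C24. These transcripts were thus present in every line and, on the probes given here, brighter in the hda6 alleles. The remaining chr31 probes were less even. The dimmer read 0.67 to 0.99 in the hda6 alleles, against 4.43 on ros1-1 replicate 2 and 0.16 to 0.26 on the other arrays. The brighter read 2.64 to 4.42 in the hda6 alleles, against 2.69 on C24 replicate 2 and 0.79 to 1.23 on the other arrays.

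Another group was the 5 transcription factors among the members with a symbol. All 5 had bounds over ros1-1 under the set's median in each allele. They were LBD7 (AT1G72980) and LBD22 (AT3G13850) of the lateral organ boundaries family, the WRKY factor WRKY68 (AT3G62340), the DOF zinc finger factor DOF4.5 (AT4G21080) and the MADS-box gene AGL36 (AT5G26650), which is known from the endosperm as an imprinted gene. AGL36 read 0.85 and 0.71 in hda6-10 and 0.41 and 0.63 in hda6-9, against 0.06 and 0.05 in ros1-1 and 0.09 and 0.06 in C24. The bound over ros1-1 for these 5 ran from 2.49-fold (LBD7) to 4.04-fold (DOF4.5) in hda6-10 and from 2.01-fold (LBD7) to 4.86-fold (DOF4.5) in hda6-9. WRKY68 had another probe that was detected on all arrays, at 1.69 and 1.82 in hda6-10 and 1.5 and 1.68 in hda6-9, against 1.05 and 1.09 in ros1-1 and 0.834 and 0.794 in C24. The second LBD22 probe was detected on no hda6 array, and it read 0.902 on 1 C24 array.

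Genes of the male reproductive line were read at low level, MS2 (AT3G11980), a fatty acyl reductase needed for the pollen wall, CYP98A8 (AT1G74540), a cytochrome P450 of pollen spermidine conjugates, and VHA-E2 (AT3G08560), a pollen isoform of a vacuolar proton pump subunit. CYP98A8 read 0.94 and 0.58 in hda6-10 and 1.38 and 1.66 in hda6-9, against 0.07 and 0.06 in ros1-1 and 0.06 and 0.07 in C24. MS2 read 0.53 and 1.17 in hda6-10 and 0.84 and 0.62 in hda6-9, against 0.06 to 0.13 on the other 4 arrays. A separate list of 12 pollen genes, which leaves these 3 out, held no member. Its 6 testable genes gave no call in either allele against ros1-1 (limma), with a median log2 difference of -0.16 in each. At an unadjusted p under 0.05 and more than 2-fold, 0 differed in hda6-10, and 1 was higher and 1 lower in hda6-9.

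Enzymes and transporters made up most of the rest of the named genes. GAD3 (AT2G02000), a glutamate decarboxylase, read 1.74 and 1.00 in hda6-10 and 1.75 and 1.85 in hda6-9, against 0.06 to 0.07 on the other 4 arrays. HSD6 (AT5G50770), a hydroxysteroid dehydrogenase, differed most between replicates, with 2.12 and 0.36 in hda6-10 and 0.93 and 0.56 in hda6-9, against 0.11 and 0.21 in ros1-1 and 0.05 and 0.07 in C24. A second HSD6 probe was detected on only 1 hda6 array, at 0.22 to 0.38 in the hda6 alleles and 0.06 on each of the other 4 arrays. ASE3 (AT4G38880), which catalyses the entry step of purine synthesis, read 1.33 and 0.47 in hda6-10 and 1.11 and 1.09 in hda6-9, against 0.07 and 0.08 in ros1-1 and 0.06 and 0.24 in C24. In all 3, hda6-10 replicate 2 was the lowest of the hda6 arrays. The nucleoside hydrolase NSH4, the laccase LAC14, the serine carboxypeptidase-like SCPL43, the cation/proton exchanger ATCHX8, the ubiquitin protease UBP1, the dynamin-like DL1D and the small cysteine-rich SCRL4 had bounds over ros1-1 of 2.0-fold (SCPL43) to 8.41-fold (DL1D) in hda6-10 and of 1.60-fold (LAC14) to 9.41-fold (DL1D) in hda6-9. SCPL43 (AT2G12480) also had a probe that was detected on every array, at 3.71 and 3.13 in hda6-10 and 4.17 and 4.62 in hda6-9, against 0.935 and 0.908 in ros1-1 and 1.08 and 1.08 in C24.

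The members with the highest bounds were largely genes without a symbol. In both alleles 11 genes had a bound above 50-fold over ros1-1, and they are named here after their values were seen. Besides SDC and AT5G41660 they were AT1G36580, AT3G29080, AT3G42723, AT3G43574, AT4G08691, AT4G18900, AT5G28919, AT5G34869 and AT5G35050. AT4G08691 read 72.4 and 72.9 in hda6-10 and 62.2 and 66.4 in hda6-9, against 0.21 and 0.06 in ros1-1 and 0.11 and 0.10 in C24. AT3G42723 read 36.4 and 36.1 in hda6-10 and 40.03 and 36.2 in hda6-9, against 0.26 and 0.16 in ros1-1 and 0.20 and 0.07 in C24. The log2 difference between the alleles was 0.18 (SE 0.52) for AT4G08691 and -0.07 (SE 0.51) for AT3G42723. AT5G34869 read 54.9 and 41.6 in hda6-10 and 14.8 and 13.9 in hda6-9, against 0.06 and 0.13 in ros1-1 and 0.05 and 0.06 in C24. Over the whole set, 25 of the 141 genes (17.7%) carried a symbol, against 39.8% of the 25383 genes with a RefSeq mRNA probe.

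The member genes were spread over all 5 chromosomes, with 26 on chromosome 1, 23 on chromosome 2, 36 on chromosome 3, 24 on chromosome 4 and 32 on chromosome 5. Chromosome 3 held 25.5% of them and 19.9% of all probed genes, and chromosome 1 held 18.4% and 26.1%. Within the chromosomes they lay toward the gene-poor stretches. Locus numbers run along each chromosome, and transposon loci were numbered with the genes, so a stretch of 1000 locus numbers that holds few protein-coding genes is poor in genes. Of the member genes 19 of 141 (13.5%) were in stretches with fewer than 50 protein-coding genes, against 496 of the 25383 probed genes (1.95%). With a limit of 30 genes the shares were 6.38% and 0.843%, and with a limit of 70 genes 17.7% and 4.05%.

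The same lean was seen by distance in gene order from the longest gene-poor run of each chromosome. This run held 86, 83, 129, 43 and 55 protein-coding genes on chromosomes 1 to 5. Within 200 genes of it, or inside it, were 45 member genes (31.9%), against 2014 probed genes (7.93%). The share of members was above that of probed genes on each chromosome, at 26.9% against 6.25% on chromosome 1, 39.1% against 9.51% on chromosome 2, 38.9% against 8.99% on chromosome 3, 25.0% against 9.95% on chromosome 4, and 28.1% against 6.56% on chromosome 5. Level went with position. Of the 40 genes with a bound above 10-fold over ros1-1 in both alleles, 28 (70%) lay within 200 genes of the run, against 17 of the other 101 member genes (16.8%). Of the 45 genes near the run, 1 had a symbol (2.22%, against 29.5% of probed genes there), and of the 96 farther away 24 did (25.0%, against 40.6%). SDC, AT4G18900 and AT5G41660 were the 3 genes above 50-fold that lay outside this range. These shares are descriptions, since neighbouring genes and probes are not independent. All the shares of position and of symbols were set against all probed genes. Of the 35617 RefSeq mRNA probes, 28737 were detected on all 8 arrays, whereas members had to lack the detection flag in ros1-1 and C24. Whether other genes without the flag in those lines lean the same way was not tested.

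Of the 141 member genes, 6 had another member directly beside them, and no expected number was computed. There were 3 pairs of neighbours in gene order, AT3G30805 with AT3G30820, QWRF6 (AT3G60000) with SK13 (AT3G60010), and AT5G28919 with AT5G28920, and 12 member genes had another within 5 genes. SK13, a homologue of the SKP1 subunit of ubiquitin ligases, read 3.48 and 1.75 in hda6-10 and 4.03 and 3.48 in hda6-9, against 0.11 and 0.07 in ros1-1 and 0.24 and 0.33 in C24. QWRF6 beside it read 0.77 and 0.46 in hda6-10 and 1.13 and 1.27 in hda6-9, against 0.16 to 0.20 on the other 4 arrays. A second QWRF6 probe was detected on 3 hda6 arrays and on 1 of the others. It read 0.48 and 0.30 in hda6-10 and 0.80 and 0.58 in hda6-9, against 0.07 and 0.13 in ros1-1 and 0.09 and 0.50 in C24. AT5G28919 read 35.9 and 26.4 in hda6-10 and 21.6 and 25.7 in hda6-9, and AT5G28920 read 6.68 and 4.52 in hda6-10 and 4.49 and 5.17 in hda6-9, while both were at or under 0.08 in ros1-1 and C24. AT3G30805 and AT3G30820 were dimmer, at 0.64 and 0.37 and at 1.55 and 1.57 in hda6-10, and at 0.68 and 0.86 and at 1.91 and 2.25 in hda6-9. A second AT3G30805 probe did not show this split, being detected on 1 hda6 array and on 1 of the others. It read 0.32 and 0.22 in hda6-10 and 0.53 and 0.37 in hda6-9, against 0.43 and 0.05 in ros1-1 and 0.05 and 0.08 in C24. Of the other tested genes directly next to a member, 14 of 181 (7.73%) were higher in each allele than in ros1-1 by the threshold used below. Over all tested genes that are no members the share was 4.58% in hda6-10 and 3.83% in hda6-9, and over those in gene-poor stretches it was 11.8% and 11.1%, above the share of the neighbours.

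A gene could be a member on 1 probe and not on another. Only 1 RefSeq mRNA probe was on the array for 106 of the 141 genes. Of the 35 genes with several, 9 had 2 member probes and 8 had no probe outside the set. The other genes had 32 further probes in all, of which 16 were detected on all 8 arrays and 6 on no ros1-1 or C24 array. These 6 include the 4 that were detected on no array at all. For 21 genes a further probe was detected on at least 1 array of ros1-1 or C24, so lack of detection in those lines holds for the probe and not for the gene. Most of the 16 further probes detected on all arrays were still brighter in the alleles. In each allele 15 of them read above ros1-1, with a median log2 difference of 2.36 in hda6-10 and 2.68 in hda6-9. For AT3G18330 the member probe read 2.17 and 1.41 in hda6-10 and 3.53 and 3.46 in hda6-9, against 0.07 to 0.11 in ros1-1 and C24. Its further probe read 26.9 and 25.6 in hda6-10 and 24.2 and 26.6 in hda6-9, against 18.6 and 18.4 in ros1-1 and 16.6 and 17.9 in C24, so this gene was read in every line. AT5G01080 was detected in every line too, but far below its hda6 signal. Its member probe read 12.8 and 8.45 in hda6-10 and 10.9 and 10.3 in hda6-9, against 0.07 to 0.08 in ros1-1 and C24. A further probe read 153 and 136 in hda6-10 and 153 and 121 in hda6-9, against 2.1 and 1.31 in ros1-1 and 0.691 and 0.559 in C24. For AT1G74130 the further probe did not separate the hda6 alleles from ros1-1 and read highest in C24. It read 3.45 and 3.38 in hda6-10 and 3.69 and 2.96 in hda6-9, against 3.35 and 3.76 in ros1-1 and 5.11 and 4.94 in C24.

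The 2 alleles were then compared with each other. The rule did not use the difference between them. However, the spread in the model also drew on the ros1-1 and C24 arrays, where the rule keeps the members below the detection flag. The threshold was an adjusted p (Benjamini-Hochberg) below 0.05 together with a difference of more than 2-fold, in a limma model over all 35391 probes tested. Among the 158 members 4 probes passed as higher in hda6-10 and 4 as higher in hda6-9, or 5.06%, against 1.97% of all probes tested (1.43% higher and 0.54% lower). With only the arrays of the 2 alleles fitted in limma, no member passed. In that fit 7 were higher and 9 lower by more than 2-fold at an unadjusted p under 0.05. The members' median log2 difference was -0.07, against -0.02 over all probes, with a range of -1.88 to 1.79. Both hda6-10 arrays lay above both hda6-9 arrays for 43 members (27.2%, background 25.9%) and below them for 50 (31.6%, background 29.5%), and the alleles overlapped for the other 65. For 68 of the 150 members without a call the 95% interval of the difference lay within 2-fold either way, and for the other 82 it reached further, so for these a 2-fold difference between the alleles was within the interval at this number of arrays.

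Both probes of AT4G07825 were higher in hda6-10. The brighter read 14.4 and 9.78 in hda6-10 and 3.70 and 3.16 in hda6-9, a log2 difference of 1.79 (SE 0.20, limma adjusted p = 0.023), and the dimmer read 5.33 and 4.30 in hda6-10 and 1.49 and 1.57 in hda6-9, a difference of 1.64 (SE 0.13, limma adjusted p = 0.015). AT1G72141 read 1.75 and 1.35 in hda6-10 and 0.45 and 0.45 in hda6-9, a difference of 1.77 (SE 0.15, limma adjusted p = 0.016). AT3G30370 read 1.25 and 1.81 in hda6-10 and 0.60 and 0.57 in hda6-9, a difference of 1.37 (SE 0.19, limma adjusted p = 0.029). In these 3 genes the arrays of the alleles did not overlap. AT4G07825 and AT3G30370 lie inside the gene-poor runs of chromosomes 4 and 3, while AT1G72141 is far from that of chromosome 1. Of the genes on the other side, described next, AT3G42550 also lies inside the run of chromosome 3, and AT2G04750, AT5G02070 and DRM1 lie more than 200 genes from theirs.

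On the other side, AT2G04750 read 1.86 and 1.29 in hda6-10 and 3.70 and 3.59 in hda6-9, a log2 difference of -1.23 (SE 0.19, limma adjusted p = 0.033). The methyltransferase gene DRM1, whose signals are given above, differed by -1.02 (SE 0.18, limma adjusted p = 0.044). AT5G02070 read 1.09 and 0.92 in hda6-10 and 2.05 and 2.24 in hda6-9, a difference of -1.09 (SE 0.18, limma adjusted p = 0.039). AT3G42550 read 1.16 and 0.95 in hda6-10 and 1.88 and 2.43 in hda6-9, a difference of -1.02 (SE 0.18, limma adjusted p = 0.042). With another background correction, normexp, the differences of AT5G02070, AT3G42550 and DRM1 turned slightly positive (0.076, 0.026 and 0.12) and none of the 4 lower calls was made.

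Some large differences missed the threshold. PKR2 had the largest difference of any member in size, -1.88 (SE 0.40, limma adjusted p = 0.064), with hda6-10 at 1.47 and 0.60 and hda6-9 at 3.86 and 3.07. AT5G34869, which had the widest gap among the 11 genes with a bound above 50-fold in both alleles, differed by 1.74 (SE 0.34, limma adjusted p = 0.055). For SDC the difference was -0.65 (SE 0.55, limma adjusted p = 0.50) and for AT5G41660 0.11 (SE 0.20, limma adjusted p = 0.77). The alleles shared no slide, and with the slide as a fixed block no member passed in limma, while 8 were higher and 15 lower by more than 2-fold with an unadjusted p under 0.05. With the slide as a random block the calls were 4 higher and 4 lower, as without it. No member passed either when hda6-10 replicate 1 (6 higher and 16 lower at unadjusted p), hda6-9 replicate 1 (5 and 7) or hda6-9 replicate 2 (7 and 8) was left out, and without hda6-10 replicate 2 the calls were 3 higher and 0 lower (11 and 2 at unadjusted p).

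Genes of the HDA6 pathway and of related programmes were read from 7 lists, chosen with earlier results of these data known. A list of 9 genes was labelled as silenced by DNA methylation, though BNS, MEA, PHE1 and QQS were detected on all 4 ros1-1 and C24 arrays. The list held 2 members, SDC and AT5G41660, which the rule had already split between the lines and which are left out of its counts here. Of the other 7 genes 5 could be tested. QQS and PHE1 were higher than ros1-1 in hda6-10 (2 of 5, where 5.01% of all probes tested were), and QQS, PHE1 and FIS2 in hda6-9 (3 of 5, where 4.29% were). None of the 5 was lower in limma, and over the whole list 0 were lower in hda6-10 and 1 in hda6-9 at unadjusted p. The median log2 difference of the 5 was 0.36 in hda6-10 and 1.49 in hda6-9, against 0.02 over all probes tested in each. The list was chosen with results known, so these counts carry no weight as evidence of a direction. QQS (AT3G30720), a gene of starch regulation that is flanked by transposons, was no member because all 8 arrays detected it, although it read 196 and 224 in hda6-10 and 173 and 211 in hda6-9, against 0.474 and 0.328 in ros1-1 and 0.312 and 0.470 in C24. PHE1 (AT1G65330), an imprinted MADS-box gene, read 1.72 and 1.28 in hda6-10 and 1.89 and 1.53 in hda6-9, against 0.601 and 0.607 in ros1-1 and 0.441 and 0.522 in C24 (limma adjusted p = 0.010 and 0.0066 for the alleles against ros1-1). FIS2 (AT2G35670), a Polycomb gene of the female line, separated the alleles, with 0.09 and 0.08 in hda6-10 and 0.810 and 0.652 in hda6-9, against 0.07 and 0.06 in ros1-1 and 0.172 and 0.283 in C24. MEA (AT1G02580), another imprinted Polycomb gene, ran the other way, with 0.07 and 0.395 in hda6-10 and 0.06 and 0.09 in hda6-9, against 0.508 and 0.399 in ros1-1 and 1.45 and 1.29 in C24, and missed the threshold (log2 difference from ros1-1 -1.47 and -2.62, SE 0.79 each, limma adjusted p = 0.31 in hda6-10 and 0.088 in hda6-9). BNS, at 29.4 to 41.9 in the hda6 alleles and 27.9 to 34.2 in ros1-1 and C24, did not pass either. FWA and SUP were not detected on any array.

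The list of 10 genes of the DNA methylation and silencing machinery, which leaves out the member DRM1, held no member. Its genes, MET1, DDM1, CMT3, SUVH4, DRM2, MOM1, VIM1, ROS1, NRPD1 and NRPE1, were detected on all 8 arrays, and none passed the threshold in either allele against ros1-1 (limma, and 0 at unadjusted p with the same 2-fold limit), with a median log2 difference of 0.14 in hda6-10 and 0.35 in hda6-9. Smaller differences had a limma adjusted p under 0.05 on at least 1 probe, namely NRPE1 higher in both alleles (0.51 and 0.56 on the log2 scale), MET1 higher in hda6-9 (0.70) and ROS1 lower in hda6-10 (-0.56). In the histone deacetylase family HDA7 (AT5G35600) came close to the set, since only 1 array outside the hda6 alleles detected it. HDA7 read 4.32 and 3.10 in hda6-10 and 4.00 and 3.77 in hda6-9, against 0.242 and 0.292 in ros1-1 and 0.123 and 0.05 in C24, and was higher than ros1-1 in both alleles (limma adjusted p = 0.0046 in hda6-10 and 0.0041 in hda6-9). None of the 14 testable seed maturation genes passed in hda6-10 (limma, 1 higher at unadjusted p) and 1 did in hda6-9, the regulator FUS3. Of 6 testable cold-induced genes, RD29A and COR15A were higher in hda6-10 and none passed in hda6-9 (limma, 1 higher at unadjusted p). Neither list held a member.

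The set has soft edges. On all 4 hda6 arrays and on 1, 2, 3 or 4 of the other arrays there were 67, 100, 111 and 28737 further RefSeq mRNA probes, and 48 probes were detected on 3 hda6 arrays and no other. Just inside the threshold lay VHA-E2, AT5G57720 and LAC14. VHA-E2 read 0.66 and 0.33 in hda6-10 and 0.56 and 0.61 in hda6-9, against 0.06 and 0.05 in ros1-1 and 0.220 and 0.197 in C24. AT5G57720 read 0.48 and 0.33 in hda6-10 and 0.62 and 0.45 in hda6-9, against 0.05 on each of the other 4 arrays, and LAC14 read 0.67 and 0.93 in hda6-10 and 0.32 and 0.45 in hda6-9, against 0.05 to 0.07. A second AT5G57720 probe was detected on no array. Just outside lay AT2G37435, AT2G45940 and AT4G30540, each undetected on a single hda6 array. AT2G37435 read 0.39 and 0.63 in hda6-10 and 0.32 and 0.37 in hda6-9, of which the last was not flagged. AT4G30540 read 0.33 and 0.41 in hda6-10 and 0.38 and 0.48 in hda6-9, of which the first was not flagged. The reverse pattern, detection on all ros1-1 and C24 arrays and on no hda6 array, was found for 60 RefSeq mRNA probes (0.168%).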

How the data were processed

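Total RNA of 12-day-old seedlings was read on 8 one-colour Agilent arrays. Per the file headers, Agilent Feature Extraction 10.7.1.1 made the deposited values, which are spot intensity values on a linear scale after background subtraction, with flags for signal well above background and for outlier spots. The combined table deposited by the authors holds the background-subtracted intensity with no normalization between arrays. Members and gene lists were chosen with earlier results of these data known. Outlier spots (25 to 49 per array) were set aside, processed signals were put on the log2 scale, the 75th percentile of each array's non-control probes was subtracted, and repeated spots were averaged. A probe was tested if detected on both arrays of at least 1 genotype (35391 of 43603 distinct probes). All 8 arrays entered a single limma 3.58.1 fit (R 4.3.3) with 1 mean for each genotype (prior degrees of freedom 1.80), after it was tested on simulated data. The contrasts were hda6-10 minus hda6-9 and, for listed genes, each allele minus ros1-1. The number of arrays limits the precision. Gene names, chromosomes and gene order came from the RefSeq TAIR10.1 annotation by accession. The array design names another build, so no coordinates are given. Genes were named if a member probe differed between alleles, if they were in a list, or if they had a member as neighbour. Also named were those nearest the threshold and all 25 member genes with a symbol, beyond the 3 per product class first planned. The male reproductive group was not a planned class. The 11 genes above 50-fold, the chromatin group and genes shown for a further probe were picked after their values were seen. Alternatives covered other detection flags, normexp (on the median spot and background signals, offset 50), median and quantile scaling, the combined table, no filter on dim probes, outlier spots kept, only the genotypes compared, slide and replicate blocks, other thresholds and each array left out in turn. Sequences and transposon annotation were not used here.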

Additional observations from a re-analysis of the deposited data

Results flagged for a closer look

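Member probes that differed between the alleles are listed again by their log2 difference, hda6-10 minus hda6-9: AT4G07825 with 1.79 and 1.64 on its 2 probes, AT1G72141 with 1.77, AT3G30370 with 1.37, AT2G04750 with -1.23, AT5G02070 with -1.09, AT3G42550 with -1.02 and DRM1 with -1.02. Over the other settings tried, the adjusted p of AT4G07825 (brighter probe) ran from 0.018 to 0.34, that of AT1G72141 from 0.0061 to 0.28, that of AT3G30370 from 0.029 to 0.42 and that of AT2G04750 from 0.014 to 0.34. For AT5G02070 it ran from 0.037 to 0.81, for AT3G42550 from 0.014 to 0.95 and for DRM1 from 0.033 to 0.68.

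A signal also appeared outside the RefSeq mRNA probes. Of the 7986 probes with other accessions, 116 (1.45%) were detected on all 4 hda6 arrays and on none of the ros1-1 and C24 arrays, against 0.444% of the RefSeq mRNA probes. The files used here pair these probes with no gene.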

How the results depend on the processing

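Detection sits close to background, and the size of the set depended on the flag. In place of 158 members, the positive-and-significant flag gave 80 and a signal above 5 background SDs gave 63, while leaving out 1 array gave 161 to 184. The counts of members past the threshold between alleles (4 higher in hda6-10 and 4 lower) moved most, and only 2 arrays per allele limit them. The lower count was 0 with normexp, where AT5G02070, AT3G42550 and DRM1 reversed to 0.076, 0.026 and 0.12, was 7 with quantile normalization and 0 with no filter on dim probes. Both counts were 0 when only the genotypes compared were fitted and with the slide as a fixed block. At the methods' threshold, with p not adjusted, they were 7 and 8. Leaving out 1 array gave 0 to 4 higher and 0 to 1 lower. The listed genes called, 8 in hda6-10 and 8 in hda6-9 against ros1-1 with 2 members among each, were 4 and 5 with the slide as a fixed block and 14 in hda6-9 at the methods' threshold. Leaving out 1 array gave 6 to 10 in hda6-10 and 7 to 9 in hda6-9. Replicate numbers did not pair the samples: the correlation of replicate differences between genotypes ran from -0.37 to 0.06. With the replicate number as a block both member counts were 0 (6 higher and 8 lower at unadjusted p), and the listed genes called were 8 and 10. The causes were not tested.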
